A study of Mus musculus with 12 samples.

Results

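Polycomb group proteins are chromatin repressors that work in a pair of enzyme complexes. Polycomb repressive complex PRC2 methylates lysine 27 of histone H3 (H3K27me3), and PRC1 ubiquitinates histone H2A, with forms of PRC1 that read the methyl mark and forms that act without it. Histone lysine demethylases of the Jumonji (JmjC) class remove methyl groups from H3, some from the Polycomb mark itself and others from marks of active or silent genes. The deubiquitinase Usp7, which removes ubiquitin from proteins, is known as a partner of PRC1. In the germline, Polycomb complexes and these demethylases are known to keep differentiation genes in check and to shape chromatin before and during meiosis.

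The 6 genes described are 3 Polycomb subunits of PRC1 (Cbx6, Pcgf3 and Ring1) and 3 demethylases (Kdm4a, Kdm5b and Kdm6b), found by their symbols in the deposited tables. The RNA came from C57BL/6 female germline stem cells (FGSCs), ovarian germ cells that can self-renew in culture. The 12 libraries formed 4 groups of 3, namely Usp7 overexpression, the overexpression control, Usp7 knockdown and the knockdown control. The labels name neither the overexpression construct, the knockdown reagent nor the age of the mice. They do not say that replicates were separate cultures, so each p-value reflects spread among these libraries alone, which may be technical. The knockdown table held 3156 transcripts of 3127 genes, and all 6 genes were in it with 1 transcript each. The overexpression table held 648 transcripts of 647 genes and 0 of the 6, so their overexpression levels were not analysed here, and neither was Usp7 in either table.

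Both tables hold only transcripts that had passed the authors' own test, with a fold of 1.5 or more and an adjusted p of at most 0.05. A change in the knockdown table is therefore how a gene came to be listed, and the tests below give sizes and errors rather than independent evidence. Listed reads ranged from 3984031 to 7079919 in knockdown libraries and from 2546675 to 3943383 in their controls. The ribosomal RNA precursor Rn45s took 58.7% to 65.3% of listed normalized counts in knockdown and 51.5% to 53.6% in controls. Knockdown control replicate 2 stood apart, with 143 transcripts over 2 log2 units above both other controls (log2 of the normalized count + 1). None of the 6 genes was among them, and in that library they lay between -0.20 (Kdm4a) and 0.19 (Ring1) log2 units from the mean of the other controls.

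Knockdown libraries held more Cbx6 and Pcgf3 RNA and less Ring1, Kdm4a, Kdm5b and Kdm6b RNA than their controls. By limma with Benjamini-Hochberg (BH) adjustment, 2 of the 6 were called higher and 4 lower, against 49.1% higher and 50.7% lower among the 2902 transcripts tested. With 99.9% of tested transcripts called in either direction, being called says nothing particular about these genes. The libraries of the groups did not overlap for any of the 6, as for 99.5% of tested transcripts. An exact permutation test of 3 libraries against 3 cannot go below p = 0.1 (two-sided), the value each of the 6 genes had. In bulk RNA, fewer cells of a type and less RNA per cell cannot be told apart.

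**Figure D1:**
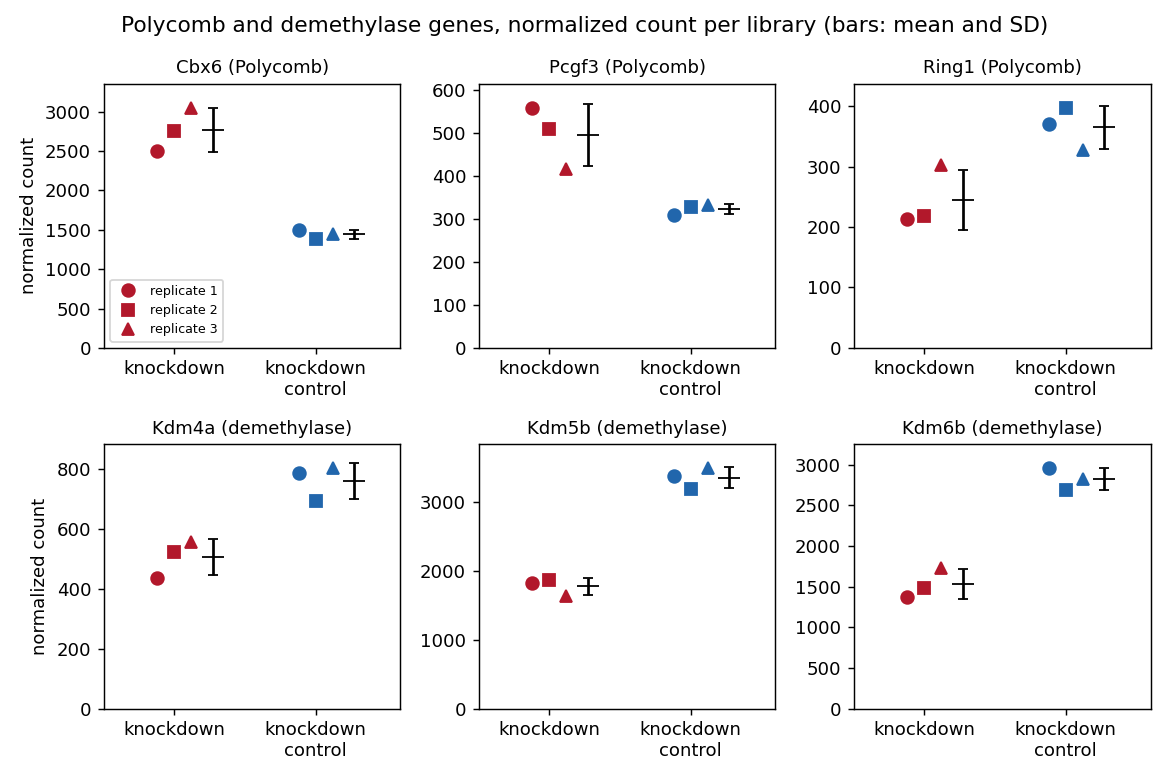
Normalized counts (y axis, from 0) of the 6 genes in the 3 knockdown and 3 knockdown control libraries. Marker shapes give replicates 1 to 3, and bars give the mean and SD. Cbx6 and Pcgf3 lie above their controls and the other 4 below, with the smallest gap for Ring1.

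Cbx6 (RefSeq NM_028763, chr15:79823898-79834333, minus strand, GRCm38) encodes a chromodomain protein of canonical PRC1, the form that binds H3K27me3. Knockdown replicates 1 to 3 had 2501, 2751 and 3053 normalized counts, against 1492, 1387 and 1448 for the controls. All 3 knockdown libraries were high, and the lowest of them stood 1008 normalized counts above the highest control. The mean was 2768 ± 276 in knockdown and 1442 ± 52.9 in controls (SD, n = 3 each), a log2 fold of 0.94 ± 0.10 SE (1.91-fold, limma with BH adjustment, adjusted p = 4.97e-05). The counted transcript shares at least 291 exonic bases on its own strand with the annotated gene Npcd, so reads from there cannot be assigned to 1 of the genes.

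Pcgf3 (NM_172716, chr5:108461259-108506976, plus strand) encodes the RING finger subunit that defines a variant PRC1 which does not need the methyl mark and is known from X chromosome inactivation. RefSeq has 3 curated Pcgf3 transcripts, of which 1 was listed. Its knockdown libraries had 559, 509 and 417 normalized counts and its controls 309, 328 and 332. Knockdown replicate 3 was the closest to the controls, 85.2 normalized counts above the highest of them. The means were 495 ± 72.1 in knockdown and 323 ± 12.4 in controls (SD, n = 3 each), a log2 fold of 0.60 ± 0.12 SE (1.52-fold, limma with BH adjustment, adjusted p = 0.00139).

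Ring1 (NM_009066, chr17:34020792-34024680, minus strand) encodes RING1A, an E3 ligase at the core of PRC1 that ubiquitinates H2A and has the paralog Rnf2. The 3 knockdown libraries, in replicate order, had 213, 219 and 302 normalized counts, against 371, 397 and 327 for controls. Knockdown replicate 3 and control replicate 3 were only 24.9 normalized counts apart, the narrowest separation among the 6 genes. The log2 fold was -0.59 ± 0.15 SE (limma with BH adjustment, adjusted p = 0.00481), with means of 245 ± 49.8 in knockdown and 365 ± 35.6 in controls (SD, n = 3 each). Without knockdown replicate 3 the log2 fold was -0.75.

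Kdm5b (NM_152895, chr1:134560178-134632878, plus strand) encodes a JmjC enzyme that removes methyl groups from lysine 4 of H3, a mark of active promoters. It had 1816, 1872 and 1632 normalized counts in knockdown and 3378, 3187 and 3483 in controls. The highest knockdown library stayed 1316 normalized counts below the lowest control, the widest gap of the 6. The means were 1773 ± 125 in knockdown and 3349 ± 150 in controls (SD, n = 3 each), so knockdown held 52.9% of the control level. The log2 fold was -0.92 ± 0.09 SE (limma with BH adjustment, adjusted p = 3.95e-05).

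Kdm6b (NM_001017426, chr11:69398508-69420367, minus strand) encodes JMJD3, which removes the H3K27me3 mark that PRC2 makes. Knockdown libraries had 1377, 1484 and 1732 normalized counts and control libraries 2954, 2683 and 2822. All knockdown libraries were low, with 951 normalized counts between the groups. The means were 1531 ± 182 in knockdown and 2820 ± 135 in controls (SD, n = 3 each), or 54.3% of the control level, with a log2 fold of -0.89 ± 0.11 SE (limma with BH adjustment, adjusted p = 8.77e-05). An antisense transcript, Kdm6bos, overlaps at least 286 exonic bases of Kdm6b. Since no source used here says if counting was stranded, reads there may come from either.

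Kdm4a (NM_001161823, chr4:118136957-118180090, minus strand) encodes a demethylase of lysines 9 and 36 of H3. RefSeq has 2 curated Kdm4a transcripts, of which this was the 1 listed. It had 438, 524 and 556 normalized counts in knockdown and 788, 692 and 802 in controls. The groups were 136 normalized counts apart. The means were 506 ± 61.1 in knockdown and 761 ± 60.1 in controls (SD, n = 3 each), a log2 fold of -0.59 ± 0.12 SE (limma with BH adjustment, adjusted p = 0.00120).

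Knockdown replicate 3 was the library nearest to the controls for Pcgf3, Ring1, Kdm4a and Kdm6b, and the farthest from them for Cbx6 and Kdm5b. The coefficient of variation was larger in knockdown than in control for each of the 6 genes, a difference that was not tested. It ran from 7.07% (Kdm5b) to 20.3% (Ring1) in knockdown and from 3.67% (Cbx6) to 9.74% (Ring1) in controls. Counting error alone would give Ring1 about 6.57% in knockdown and 5.16% in controls. Ring1 rested on 205, 281 and 218 reads in knockdown and 454, 459 and 267 in controls, and Kdm5b on 1747, 2402 and 1178 reads in knockdown and 4135, 3681 and 2844 in controls.

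The changes of these genes were modest within a table of selected changes. In the authors' deposited table the absolute log2 folds of Ring1 (-0.59) and Kdm4a (-0.59) lay just inside the smallest listed value of 0.585, and 0.317% and 0.697% of listed transcripts had smaller ones. Pcgf3 had 5.04% of listed transcripts below it in the authors' deposited table, Kdm6b 31.1%, Kdm5b 33.8% and Cbx6 35.5%. With the authors' scaling the 6 genes thus fell into a stronger set (Cbx6, Kdm5b and Kdm6b, at 1.91-fold, 1.89-fold and 1.85-fold) and a weaker set near the limit of the table (Pcgf3 at 1.52-fold, Kdm4a at 1.51-fold and Ring1 at 1.5-fold). Other scalings changed this order, and with median-of-ratios scaling the log2 fold of Pcgf3 was 0.91, that of Kdm5b -0.61 and that of Kdm6b -0.58.

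To compare levels between genes, normalized counts were divided by the length of the counted transcript in GENCODE, from 2034 bases (Ring1) to 8714 bases (Kdm5b). In knockdown, Cbx6 stood first with 477 ± 47.6 normalized counts per kilobase (SD, n = 3), followed by Kdm6b (230 ± 27.3), Kdm5b (203 ± 14.4), Ring1 (120 ± 24.5), Kdm4a (108 ± 13.1) and Pcgf3 (64.2 ± 9.35). In controls the order of levels per kilobase was Kdm6b (424 ± 20.3), Kdm5b (384 ± 17.2), Cbx6 (248 ± 9.11), Ring1 (180 ± 17.5), Kdm4a (163 ± 12.9) and Pcgf3 (41.9 ± 1.61). Cbx6 was thus above both Kdm6b and Kdm5b in knockdown and below both in controls. Ring1 and Kdm4a overlapped in both groups, and Kdm6b and Kdm5b overlapped in knockdown and were barely apart in controls (lowest Kdm6b 403, highest Kdm5b 400 normalized counts per kilobase). The other neighbours in the order did not overlap. Pcgf3 was the least abundant per kilobase in both groups.

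**Figure D2:**
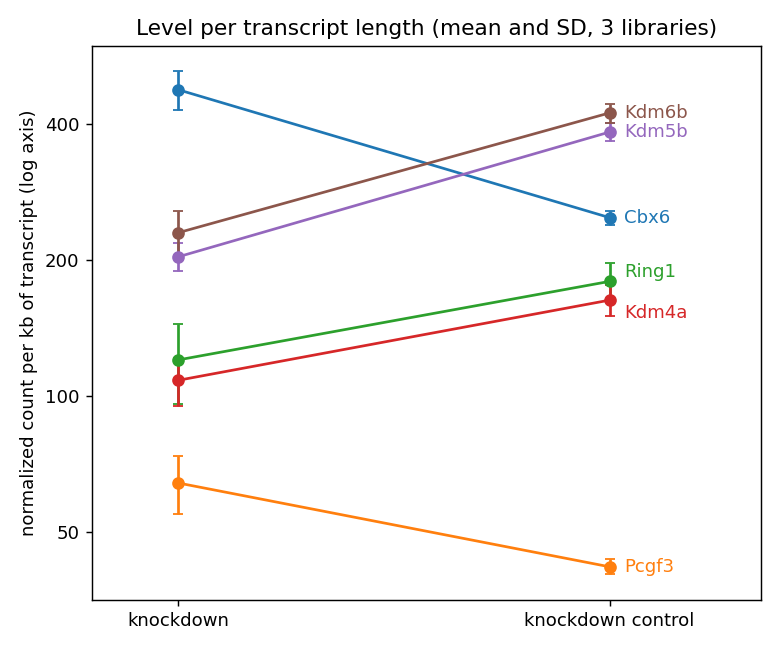
Normalized counts per kilobase of transcript (log y axis, mean and SD of 3 libraries) in knockdown and knockdown control. Cbx6 stands above Kdm6b and Kdm5b in knockdown (477 against 230 and 203 per kilobase) and below both in controls (248 against 424 and 384).

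The ratio of a pair of these genes within 1 library does not depend on how libraries are scaled, and its change between groups does not depend on transcript length. The ratio of Cbx6 to Ring1 normalized counts was 11.7, 12.6 and 10.1 in knockdown, against 4.02, 3.49 and 4.43 in controls. Cbx6 RNA was thus more abundant relative to Ring1 RNA in every knockdown library, by 1.53 on the log2 scale (3.51 ± 0.16 in knockdown, 1.99 ± 0.17 in controls, SD). The paralog Rnf2 was not listed, and protein was not measured here. Pcgf3 to Ring1 was 2.62, 2.32 and 1.38 in knockdown and 0.833, 0.826 and 1.02 in controls, again without overlap. Cbx6 and Pcgf3 were listed for a rise and Ring1 for a fall, each of 1.5-fold or more. The direction and a minimum size of both ratio changes thus came with the listing.

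Between the families, the ratio of Cbx6 to Kdm6b was 1.82, 1.85 and 1.76 in knockdown and 0.505, 0.517 and 0.513 in controls. Its SD on the log2 scale was 0.04 in knockdown and 0.02 in controls, the smallest in each group among the 15 pairs. Within the demethylases, Kdm5b to Kdm6b was 1.32, 1.26 and 0.942 in knockdown and 1.14, 1.19 and 1.23 in controls, which overlapped (difference -0.03 on the log2 scale, SD 0.26 and 0.05). Ring1 to Kdm4a also overlapped, at 0.487, 0.418 and 0.544 in knockdown and 0.470, 0.574 and 0.408 in controls. Of all 15 pairs, 10 did not overlap, including each of the 8 pairs of a gene that was higher with 1 that was lower, whose direction follows from how they moved. The others without overlap were Kdm4a to Kdm5b and Kdm4a to Kdm6b (differences of 0.33 and 0.29 on the log2 scale). How often pairs of other listed transcripts overlap was not counted. The smallest p of the exact permutation test (two-sided) was 0.1, or 0.15 after BH adjustment over the 15 pairs, so none could pass the threshold.

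**Figure D3:**
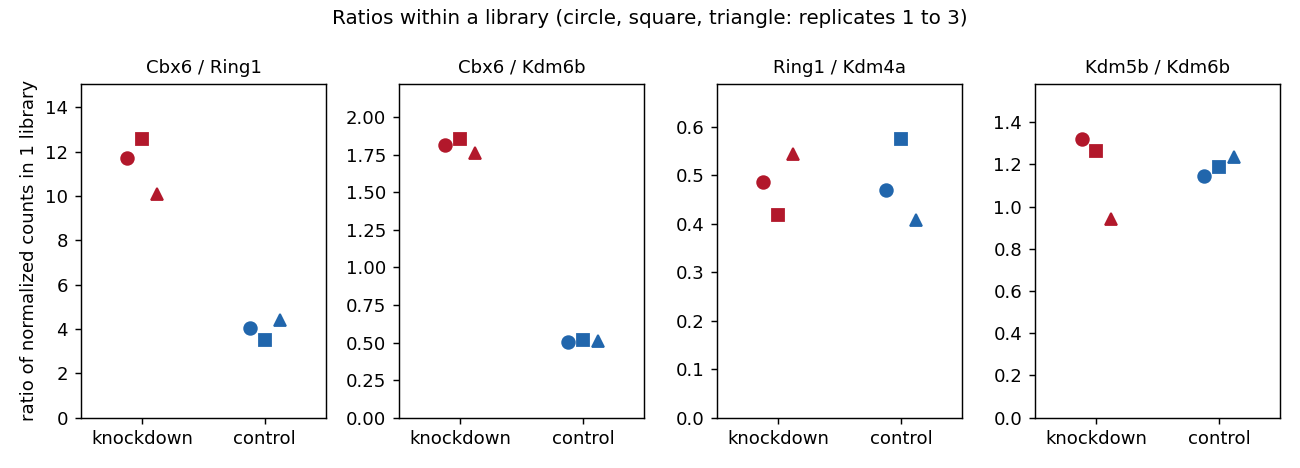
Ratios of normalized counts of 4 gene pairs within each library (y axes from 0), with knockdown left of its control. Cbx6 to Ring1 lies between 10.1 and 12.6 in knockdown and between 3.49 and 4.43 in controls, while Ring1 to Kdm4a and Kdm5b to Kdm6b overlap.

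The size of each fold depended on library scaling, which moved the median of all tested transcripts by 0.30 (median of ratios) to -0.81 (column totals) on the log2 scale. Median-of-ratios, TMM and column-total factors were computed on the listed transcripts, all selected as changed, and not on whole libraries. Median of ratios and TMM take most transcripts as unchanged, which the selection prevents. Which scaling is right was not tested, so a lost call does not show that a gene was unchanged. Kdm5b and Kdm6b were lower and called under all 6 scalings. Their log2 folds were -0.61 and -0.58 with median-of-ratios scaling and -1.73 and -1.70 with column totals. Ring1 and Kdm4a were lower under all 6 scalings as well, but with median-of-ratios scaling they were not called (log2 folds -0.29 and -0.29, limma with BH adjustment, adjusted p = 0.0870 and 0.0756), nor without any scaling (-0.71 and -0.72). Cbx6 was higher under all 6 and not called with column totals (0.12, limma with BH adjustment, adjusted p = 0.251). Pcgf3 was not called without scaling (0.48) and flipped to -0.20 with column totals (adjusted p = 0.218 by limma with BH adjustment), in which Rn45s takes at least 51.5% of the listed normalized counts of each library. With Rn45s left out of the totals, an alternative chosen after seeing the data, Cbx6 was at 0.47 and called, and Pcgf3 at 0.14 and not called (limma with BH adjustment, adjusted p = 0.000131 and 0.438).

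**Figure D4:**
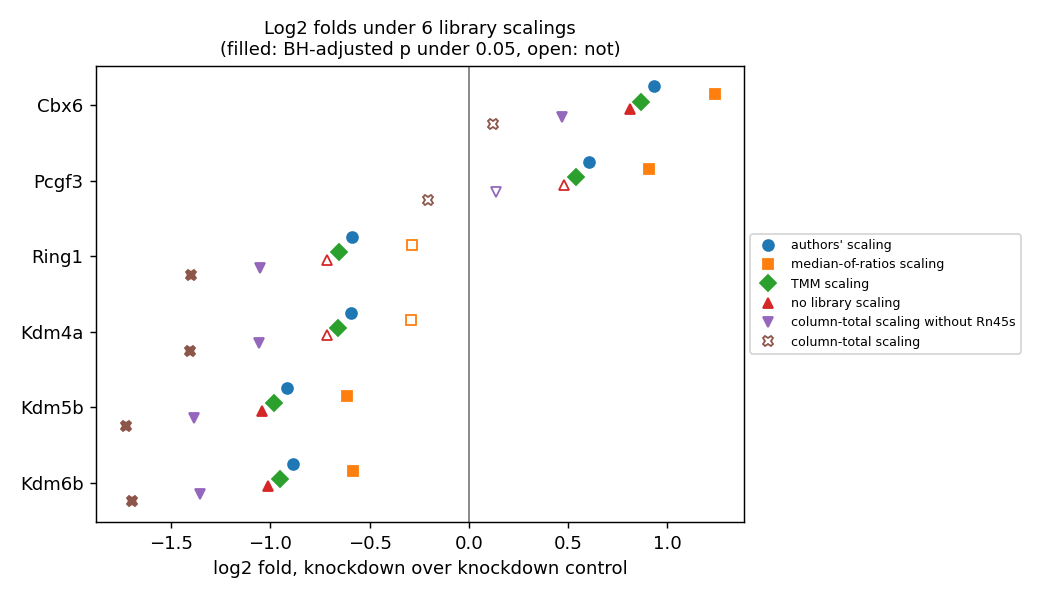
Log2 folds (x axis, knockdown over knockdown control) of the 6 genes under 6 library scalings. Filled markers have a BH-adjusted p under 0.05 and open ones do not. Kdm5b and Kdm6b stay left of 0 and filled throughout, while Pcgf3 lies at -0.20 with column totals.

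The promoters of the genes that fell were set against that of Pcgf3, which rose, to show what sequence lies upstream of genes that moved together. Of the 6 genes, 5 had an entry in the RefSeq promoter table (GRCm38.p6), and Kdm6b is named only. Shown 5′ to 3′ on the gene's strand are the bases before the start site that no annotated exon covers, chr1:134559928-134560170 (plus strand), chr17:34024681-34024930 (minus), chr4:118180091-118180293 (minus) and chr5:108461009-108461231 (plus). None are shown for Cbx6, since an annotated exon reaches the far end of its window. Capitals mark the core of the cyclic AMP response element, TGACGT, and the GC box, GGGCGG, on either strand.
Kdm5b: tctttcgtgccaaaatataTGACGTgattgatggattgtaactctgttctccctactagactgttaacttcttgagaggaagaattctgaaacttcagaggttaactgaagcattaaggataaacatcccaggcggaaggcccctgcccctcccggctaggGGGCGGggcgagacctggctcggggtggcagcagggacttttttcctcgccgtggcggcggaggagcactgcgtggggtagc
Ring1: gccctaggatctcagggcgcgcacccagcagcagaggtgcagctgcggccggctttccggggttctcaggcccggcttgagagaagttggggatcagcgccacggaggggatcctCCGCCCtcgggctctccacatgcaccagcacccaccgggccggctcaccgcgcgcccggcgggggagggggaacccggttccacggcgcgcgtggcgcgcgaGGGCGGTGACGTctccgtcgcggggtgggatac
Kdm4a: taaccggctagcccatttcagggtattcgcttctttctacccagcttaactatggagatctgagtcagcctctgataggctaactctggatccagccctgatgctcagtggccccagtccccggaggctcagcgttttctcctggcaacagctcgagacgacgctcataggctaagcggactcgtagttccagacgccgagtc
Pcgf3: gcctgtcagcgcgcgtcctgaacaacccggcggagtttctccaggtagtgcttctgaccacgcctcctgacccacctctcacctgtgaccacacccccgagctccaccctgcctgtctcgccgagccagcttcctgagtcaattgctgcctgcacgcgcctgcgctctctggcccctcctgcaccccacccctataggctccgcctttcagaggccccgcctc

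Both motifs lie upstream of Kdm5b and of Ring1, where 1 GC box adjoins the response element core, and neither is in the Kdm4a or Pcgf3 window. Over the 250 bases before the start, TGACGT begins 231 bases upstream of Kdm5b and 27 bases upstream of Ring1, and 6.50% of 32536 promoters hold it on either strand. GGGCGG, in 33.0% of promoters, had 1 match at Kdm5b, 2 at Ring1 and 2 at Cbx6, whose window overlaps an annotated exon. The E-box CACGTG (6.04% of promoters) and the E2F core TTCGCGC (1.29%) matched only Cbx6 among the 5, and the CCAAT box, CCAAT (33.8%), only Kdm4a. The Kdm4a match begins 31 bases before the start, among the 47 bases of its window that overlap the annotated gene and are not shown above. The full response element TGACGTCA (1.56%), which contains the core, and the NRF1 core GCGCATGC (2.27%) matched none of the 5. The windows of Ring1, Cbx6 and Pcgf3 were 73.6%, 68.0% and 66.0% G or C, those of Kdm5b and Kdm4a 54.4% and 53.6%, against a median of 52.4% over all promoters. A match is a description of the letters and not a binding site.

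Other genes of the same complexes were listed too. Of a list of 40 PRC1 genes, 8 were in the knockdown table, of which 5 rose and 3 fell. Over all tested transcripts, 49.1% were called higher and 50.7% lower. The median log2 fold was 0.65 for the list and -0.61 over all tested transcripts. Since listed absolute log2 folds start at 0.585, a small shift of these shares can change the sign of such a median. Besides Cbx6 and Pcgf3, those that rose were Skp1a, an adaptor of a Kdm2b-containing PRC1 and of SCF ligases (log2 fold 1.01 ± 0.11 SE), the scaffold Wdr5, shared with H3 lysine 4 methyltransferases (0.92 ± 0.11), and the deacetylase Hdac2 (0.70 ± 0.16, which flipped to -0.11 with column totals). With column totals Skp1a (0.20) and Wdr5 (0.11) were not called. Skp1a had 1187, 1040 and 1332 normalized counts in knockdown and 581, 621 and 556 in controls. Those that fell with Ring1 were Auts2 (-1.70 ± 0.39) and the casein kinase subunit Csnk2b (-1.21 ± 0.23), which are known to join the variant PRC1 that Pcgf3 defines. Both had few counts in the listed transcript. Auts2 averaged 6.50 ± 2.31 in knockdown and 23.5 ± 8.29 in controls, and Csnk2b 27.8 ± 7.12 in knockdown and 64.4 ± 7.23 in controls (SD, n = 3 each). The Auts2 libraries ran from 3.90 to 8.31 normalized counts in knockdown and from 14.7 to 31.2 in controls. Auts2 thus reached the normalized count needed for testing through its controls alone.

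Of 15 PRC2 genes, 2 were listed, and both rose (median log2 fold 1.31), in a table where 49.1% of tested transcripts were called higher and the median was -0.61. Epop, an accessory subunit that ties PRC2 to elongin, had 1088, 1202 and 1408 normalized counts in knockdown, against 433, 447 and 449 in controls. Its groups were far apart, with a log2 fold of 1.47 ± 0.11 SE (limma with BH adjustment, adjusted p = 1.52e-05). Phf19, a Polycomb-like subunit that helps PRC2 onto chromatin, had 1020, 1199 and 1341 in knockdown and 560, 507 and 523 in controls, a log2 fold of 1.15 ± 0.12 SE. Under all 6 scalings, Epop and Phf19 remained higher in knockdown.

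Of 30 histone demethylases and related JmjC proteins, 8 were listed, of which 5 fell and 3 rose (median log2 fold -0.74). Over all tested transcripts 50.7% were called lower and the median was -0.61, so the list lay near the background. Kdm7a, which acts on dimethylated lysines 9 and 27 of H3, fell most, with 168, 144 and 151 normalized counts in knockdown and 508, 552 and 532 in controls (log2 fold -1.77 ± 0.11 SE). Kdm4d, a relative of Kdm4a that acts on lysine 9 and is known from the testis, had 64.4, 61.6 and 58.2 normalized counts in knockdown and 180, 158 and 158 in controls (-1.41 ± 0.13). Both lay below their controls in every library. Kdm8 rose, with 204, 203 and 247 normalized counts in knockdown and 96.4, 71.9 and 68.6 in controls (1.46 ± 0.16). The ribosomal oxygenase Riox1 (0.81 ± 0.11) and the hairless gene Hr (1.06 ± 0.27) rose as well, but with column totals Riox1 changed sign, at a log2 fold of -0.00010, and Hr was not called.

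**Figure D5:**
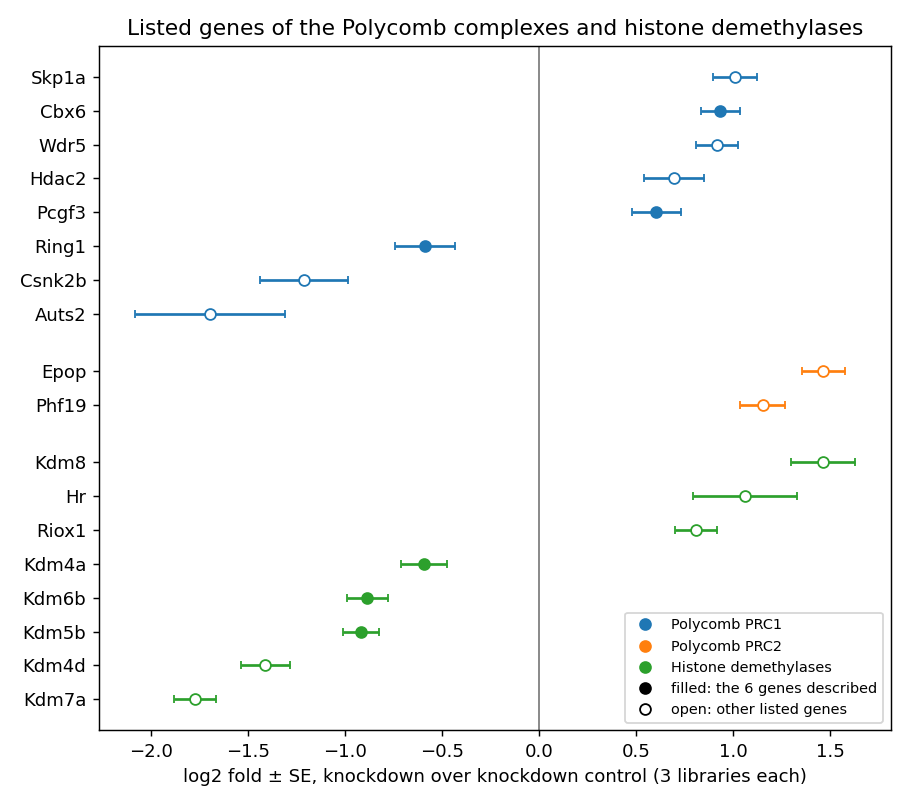
Log2 folds with SE (x axis, knockdown over knockdown control, 3 libraries each) of the listed PRC1, PRC2 and demethylase genes. Filled points are the 6 genes described. The PRC1 and demethylase lists hold genes on both sides of 0 (5 higher and 3 lower, 3 higher and 5 lower), and both PRC2 genes lie above it.

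Few genes of the neighbouring pathways were listed. Of 34 histone lysine methyltransferases 1 was, Smyd2, which rose (log2 fold 0.60 ± 0.10 SE) and flipped to -0.21 with column totals. Of 15 genes of H2A ubiquitin removal 1 was, Mysm1, which takes ubiquitin off H2A and so opposes Ring1. It had 305, 203 and 144 normalized counts in knockdown and 305, 353 and 352 in controls, so that knockdown replicate 1 reached the level of control replicate 1. Mysm1 passed in the full comparison (-0.69 ± 0.24, limma with BH adjustment, adjusted p = 0.0176). It was -0.68 without knockdown replicate 2 and -0.66 without control replicate 3 (adjusted p = 0.05001 and 0.0518 by limma with BH adjustment, neither called), and -0.43 without knockdown replicate 3. With median-of-ratios scaling it was not called either (-0.39, limma with BH adjustment, adjusted p = 0.0845). Of 27 partners and substrates of Usp7, 2 were listed, the replication clamp Pcna (0.96 ± 0.10, not called with column totals) and the transcription factor Foxo3 (-0.74 ± 0.09).

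Of 70 developmental regulators known as Polycomb targets, 6 were listed in the knockdown table, and 2 had enough counts to test. Gata2, a transcription factor of blood and other lineages, had 566, 676 and 804 normalized counts in knockdown and 295, 270 and 312 in controls (log2 fold 1.21 ± 0.14 SE). Hoxa4, a homeobox gene, had 17.7, 27.3 and 24.9 in knockdown and 71.9, 62.3 and 89.4 in controls (-1.64 ± 0.22). The other 4 (Hoxd4, Hoxd9, Tbx2 and Gata6) were low, and each was highest in control replicate 2, the library that stood apart. Gata6 had 1.04, 0 and 0 normalized counts in knockdown and 2.45, 58.9 and 7.35 in controls.

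Relatives of the 6 genes gave the only view of the overexpression table. Of the PRC1, PRC2 and demethylase lists, Kdm4d alone was listed there, and it rose. It had 64.4, 55.7 and 59.7 normalized counts in overexpression and 16.1, 11.1 and 4.62 in overexpression controls (log2 fold 2.53 ± 0.39 SE, limma with BH adjustment, adjusted p = 0.000114). With median-of-ratios scaling, which moved the median of all tested transcripts by -1.19, the log2 fold of Kdm4d was 1.37 and still called (adjusted p = 0.0135 by limma with BH adjustment). All tested transcripts (100%) were called in overexpression, 65.3% higher and 34.7% lower. Hoxa4 rose too (1.84 ± 0.41), though it was not called with median-of-ratios scaling (0.70, limma with BH adjustment, adjusted p = 0.123). Its normalized counts were 30.6, 25.1 and 42.1 in overexpression and 8.05, 4.43 and 14.8 in overexpression controls. Hoxb9 fell (-2.26 ± 0.44, and -1.495 with a pseudocount of 5). Its counts were low, at 1.30, 6.56 and 2.72 in overexpression and 15.1, 18.8 and 21.3 in overexpression controls. Hoxb9 thus reached the limit of 10 for testing through its controls alone. Kdm4d and Hoxa4 were thus higher in overexpression and lower in knockdown, each against its own control in a separately normalized table. Mael, Tex101, Ift140 and Atp8b3, named here as markers or for likeness to Kdm6b, moved the same way. Genes that rose in both tables or fell in both were not looked for. The share of each kind among all genes in both tables was not counted, so these genes show no general pattern. Each table lists only transcripts that passed the authors' test.

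The transcripts most like each gene across the 6 knockdown-table libraries were ranked by Pearson correlation of log2(normalized count + 1), among 1664 others with a mean of at least 100. Nearest to Cbx6 were Pdcd11, Asf1b and Eme1 (r = 0.9997, 0.9995 and 0.9995), and nearest to Pcgf3 were Usp46, Aspm and Ercc6l (0.9990, 0.9988 and 0.9982). Nearest to Ring1 were Hcfc1r1, Naglu and Evi5l (r from 0.9882 to 0.9935), and to Kdm4a Tmem63a, Ubald1 and Snx20 (0.9927 to 0.9945). Nearest to Kdm5b were Nktr, Nol4l and Clcn6 (0.9978 to 0.9982), and to Kdm6b Ift140, Atp8b3 and Aars (0.9992 to 0.9998). All libraries share the difference between the groups, so values near 1 are common. In these 6 libraries 240 transcripts were above 0.99 with Cbx6 and 115 with Kdm6b, but only 2 with Ring1 and 7 with Kdm4a. With column totals the likeness of Cbx6 was 0.943 to Pdcd11, 0.882 to Eme1 and 0.235 to Asf1b. That of Pcgf3 was 0.489 to Usp46, 0.474 to Ercc6l and 0.167 to Aspm, while those of the genes that fell stayed at 0.9969 or more. Column totals moved the median log2 fold by -0.81, which narrows the group difference of genes that rose and widens that of genes that fell.

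Markers of cell types moved in the same comparison. Each listed marker, of every cell type looked at, had a lower mean in knockdown than in controls. Over all tested transcripts, 50.7% were called lower. Of 15 markers of germline stem cells 4 were listed, and 3 fell (Mael, Tex101 and Id4). The summed levels of the 4 were 356 to 385 normalized counts in knockdown and 847 to 1034 in controls. The fourth, Ifitm3, a surface protein used to isolate FGSCs, was low, at 2.54 normalized counts in knockdown and 19.1 in controls. The other germline markers were not listed, so their levels are not known here. Listed fibroblast markers (3 of 11) summed to 96.7 to 136 in knockdown and 360 to 1733 in controls, and smooth muscle markers (3 of 7) to 178 to 213 in knockdown and 361 to 1296 in controls. Leukocyte markers (2 of 9) summed to 140 to 171 in knockdown and 384 to 432 in controls. Endothelial (3 of 6), oocyte (2 of 10) and granulosa cell markers (1 of 8) did not exceed 11.1 in knockdown and 102 in controls, and of the listed markers 0 were at 0 in every library. Their part in the results was not tested. Without control replicate 2, in which the stromal sums were highest, the log2 folds were 0.91 (Cbx6), 0.62 (Pcgf3), -0.53 (Ring1), -0.66 (Kdm4a), -0.95 (Kdm5b) and -0.92 (Kdm6b), and all 6 were called by limma with BH adjustment.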

How the data were processed

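Per the labels, RNA was isolated with Trizol and sequenced from Illumina TruSeq libraries. Bowtie 0.12.2 is the tool listed, and mm10 and GRCm38 the builds, per the submitters' processing notes. No source used here names the counting tool, its strand setting or the authors' test. Library columns hold a signal, the reads per transcript that the authors divided by a size factor for each library (normalized counts). Other deposited columns hold the authors' log2 fold change with its error, a score (fold over error), the p-value and the adjusted p-value.

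Knockdown columns were whole multiples of 1 step (100% of values, within 0.001 of a read), which gave back the reads. On these reads edgeR 4.0.16 called 2902 transcripts. The folds given come from limma 3.58.1 (R 4.3.3, trended variance), fitted to each table on log2(normalized count + 1). A transcript was tested when 3 libraries reached a normalized count of 10 and its sum was 15 or more. A BH-adjusted p under 0.05 over all tested transcripts was a call. The fit was tested on simulated data, in which only 200 transcripts changed and the size factors were known. These tables differ in both respects, so that test does not check the scaling or the calls given here. Alternatives were other library scalings, pseudocounts of 0.5 and 5, no filter, a replicate block, leaving out each library, and edgeR and DESeq2 1.42.0 on reads. Transcript lengths came from GENCODE. Full library depth is unknown, since only part of each library is listed, and p-values do not cover the authors' selection. The 6 genes and all gene lists were chosen with earlier results of these data known. The 6 genes were named, as was every listed gene of a list with 8 or fewer listed, and the 3 transcripts most correlated with each of the 6, leaving out predicted and clone names.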

Additional observations from a re-analysis of the deposited data

How the results depend on the processing

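Of the alternatives, library scaling changed calls most. With column totals, 1756 transcripts were called in knockdown and 269 of them were higher (15.3% against 49.2% with the authors' scaling), and 0 of the 6 genes were called higher. Folds then turned to -0.20 for Pcgf3, -0.11 for Hdac2, -0.21 for Smyd2 and -0.00010 for Riox1. Without scaling, 2143 of 2902 tested transcripts were called, 699 of them higher (32.6% of those called) and 1444 lower. Of the 6 genes, 1 was then called higher and 2 lower. With median-of-ratios scaling 1396 of 2902 tested transcripts were called lower in knockdown, 2 of the 6 genes among them. In overexpression 226 transcripts were then called higher (47.4% of those called, against 65.3% with the authors' scaling). With column totals without Rn45s, which moved the median of all tested transcripts by -0.46 on the log2 scale, 1 of the 6 was called higher. The cause was not tested. Leaving out single libraries, pseudocounts of 0.5 and 5, no filter, TMM, edgeR and DESeq2 changed no call among the 6. Without 1 library in turn, log2 folds ranged from 0.86 to 1.01 for Cbx6, 0.51 to 0.72 for Pcgf3, -0.75 to -0.50 for Ring1, -0.66 to -0.49 for Kdm4a, -0.96 to -0.86 for Kdm5b and -0.98 to -0.81 for Kdm6b.

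Same-numbered libraries did not deviate together (correlations of -0.11 to 0.05, and 0 of 6 construct libraries matched best with their own number), so the numbers were not taken to pair samples. With the replicate block 2898 transcripts were called in knockdown and 613 in overexpression, as without it. The overexpression fit without library scaling was not run.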
